A study of Mus musculus with 6 samples.

Results

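AMP-activated protein kinase (AMPK) and its upstream kinase LKB1 are described here through 10 genes: the catalytic subunits Prkaa1 and Prkaa2, the scaffold subunits Prkab1 and Prkab2, the nucleotide-binding subunits Prkag1, Prkag2 and Prkag3, and the LKB1 complex genes Stk11, Strada and Cab39. They were chosen by symbol, with results of the comparison below already known, the fold change of Prkaa2 among them, and all 10 had a row among the 22432 genes of the authors' deposited table. Their values are therefore a description, and the adjusted p-values printed are those of the deposited columns. The 6 samples were total RNA of mouse male germline stem cells in culture, the cells of the testis that renew themselves and feed sperm production. In 3 samples the cells were CDH1+/THY1+ and in 3 they were CDH1-/THY1+, where CDH1 is the adhesion protein E-cadherin and THY1 a surface glycoprotein used to enrich such cells. Each population had a sample of the cultures RP7 (age 8 weeks), RP5 (age 19 days) and WT1 (age 5 weeks). The strain of RP7 and RP5 was given as OCT4/GFP; Dox-OCT4, and that of WT1 as C57BL/6. All samples were male, at passage 6 to 8, and had been kept on DR4 feeder fibroblasts with GDNF and FGF, and no agent differed between them in the labels.

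AMPK senses a falling energy supply. It is a trimer of a catalytic alpha, a scaffolding beta and a gamma subunit, and AMP or ADP bound to gamma favours phosphorylation of the activation loop of alpha by LKB1. LKB1, encoded by Stk11, works in a complex with the pseudokinase STRAD-alpha (Strada) and the adaptor MO25-alpha (Cab39). Active AMPK restrains lipid synthesis and mTORC1 and favours autophagy, glucose uptake and mitochondrial upkeep.

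The table compares RNA levels of CDH1+/THY1+ with CDH1-/THY1+ cells, a direction taken from its name alone. It was not checked against the level of Cdh1, which was not analysed here, and every higher or lower below rests on it. It holds no value per sample, so levels are means over all 6 libraries of counts scaled by library size, and total depth per named sample and the spread within a population are unknown. Errors after ± are standard errors of the log2 fold change in the authors' deposited table, and an interval is the 95% normal interval made from that error. A gene was called where its adjusted p was under 0.05. Calls made up 33.5% of the genes that had one in the authors' deposited table, with 17.1% higher and 16.4% lower in CDH1+/THY1+ cells. These shares, and any median over all rows, cover only genes with a row, whose log2 fold changes ran from -2.94 to 2.14. They therefore do not measure the balance of higher and lower among all transcripts.

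In CDH1+/THY1+ cells both catalytic subunit genes were higher, the scaffold subunit genes were not called, and Prkag2 and Cab39 were lower. Adjusted p-values were present for 9 of the 10 members in the authors' deposited table: 2 genes were called higher, 2 lower and 5 were not called. The median log2 fold change of the 10 was -0.04, against 0.01 over all rows of the authors' deposited table. In the same comparison 8 of 22 fibroblast markers were higher and 14 of 14 germ cell markers lower. Of the 8 pluripotency genes with a row 6 were higher, as given below. The part of these markers in the values of the members was not tested. Nothing is read from the count of members beside the background share. Of all genes 16.3% were called under a Benjamini-Yekutieli adjustment (7.46% higher and 8.81% lower), 23% at an adjusted p under 0.01 (11% and 12%) and 14% at a minimum of 2-fold (7.47% and 6.54%). The share was 27.6% with every row that had a p-value, 44.3% among genes whose mean count reached 100, and 33.2% without the genes of largest standard error.

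**Figure D1:**
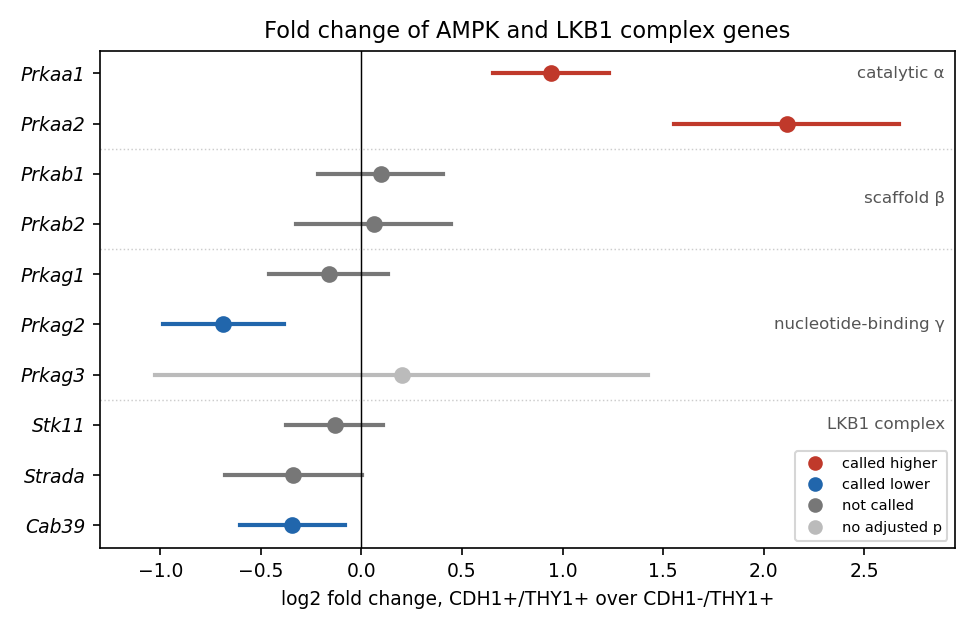
Points give the log2 fold change of each member in CDH1+/THY1+ relative to CDH1-/THY1+ cells, with 95% normal intervals (lines), by role in the complex. Only the catalytic pair lies wholly above 0, from 0.66 at the lower end of Prkaa1 to 2.67 at the upper end of Prkaa2.

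Prkaa2 encodes the catalytic subunit alpha2, the form that is prominent in muscle. The gene lies at chr4:105029874-105109890 on the minus strand (GRCm38) and has 1 annotated transcript. It had a mean normalised count of 110.6, close to the median of all rows, 97.5, and a log2 fold change of 2.11 ± 0.29 in the authors' deposited table (DESeq2 adjusted p = 5.81e-12). That is 4.33-fold higher in CDH1+/THY1+ cells, with an interval of 2.94 to 6.38-fold. Prkaa2 was the 12th highest of the 22432 log2 fold changes in the authors' deposited table, the highest being 2.14 and the lowest -2.94. The rank covers only genes with a row, and the fold changes appear shrunken towards 0. It therefore does not give the standing of Prkaa2 among all transcripts. Its standard error was at percentile 52 among the 200 genes of nearest mean count.

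Prkaa1, which encodes the broadly expressed catalytic subunit alpha1, lies at chr15:5143861-5181899 on the plus strand. It had a mean normalised count of 811.2 and a log2 fold change of 0.94 ± 0.15 in the authors' deposited table (DESeq2 adjusted p = 3.18e-09), or 1.92-fold higher in CDH1+/THY1+ cells (interval 1.57 to 2.35). The interval of Prkaa1, 0.66 to 1.23 on the log2 scale, lay below that of Prkaa2, 1.55 to 2.67. The difference between the genes was not tested.

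Per kilobase of exon, Prkaa1 was the main catalytic gene, with a mean of 174.3 normalised counts per kb against 13.9 for Prkaa2, a ratio of 12.6. If the deposited mean is taken as the midpoint of the populations and the deposited fold change as their ratio, the implied levels of Prkaa2 are 22.5 counts per kb in CDH1+/THY1+ and 5.21 in CDH1-/THY1+ cells. For Prkaa1 the same arithmetic gives 229.2 counts per kb in CDH1+/THY1+ and 119.3 in CDH1-/THY1+ cells. The implied share of Prkaa2 in the catalytic pair is then 8.95% in CDH1+/THY1+ and 4.18% in CDH1-/THY1+ cells. These are derived from shrunken fold changes and carry no measured spread; with the shrinkage approximately undone, Prkaa2 comes to 23.9 counts per kb in CDH1+/THY1+ and 3.83 in CDH1-/THY1+ cells.

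**Figure D2:**
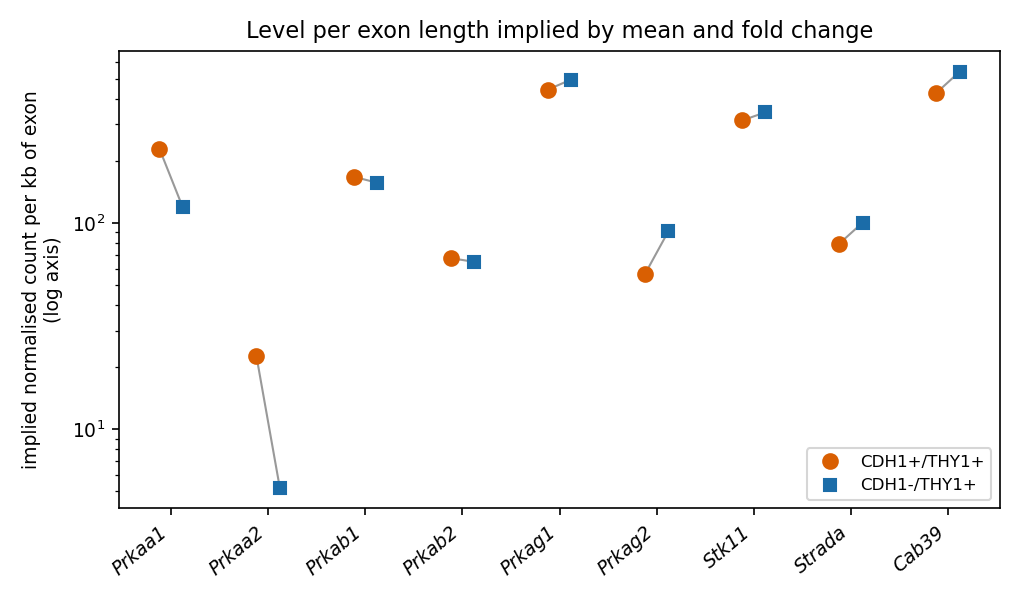
Normalised count per kb of exon implied by the deposited mean and fold change for 9 members (log axis), with CDH1+/THY1+ as circles and CDH1-/THY1+ as squares; Prkag3, with 10 reads in all, is left out. Prkaa2 shows the widest gap, 22.5 against 5.21, and stays below Prkaa1 in both populations.

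The coding sequences of Prkaa1 and Prkaa2 (1677 and 1656 bases without the stop codon in GENCODE M21) were 71.2% identical over 1626 aligned positions. Reads of these paralogues could be confused most easily where they are identical over a stretch, so the longest such run is shown. It measured 35 bases and lay in exon 1 of both, at chr15:5143908-5143942 in Prkaa1 and at chr4:105109758-105109792 on the minus strand in Prkaa2. Capitals mark the shared run, lower case the neighbouring coding bases:
Prkaa1: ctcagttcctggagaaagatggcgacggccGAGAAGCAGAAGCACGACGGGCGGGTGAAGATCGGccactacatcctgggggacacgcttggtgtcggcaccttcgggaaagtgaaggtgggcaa
Prkaa2: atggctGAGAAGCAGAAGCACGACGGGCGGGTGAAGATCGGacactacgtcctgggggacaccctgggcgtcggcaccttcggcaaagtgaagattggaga
A read of coding sequence longer than that run would hold at least a base that differs. The sources used here give neither the read length nor how reads with several matches were counted.

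The start regions of the 4 called genes are shown because the catalytic pair was higher together and Prkag2 and Cab39 were lower. Each is the 250 bases before a start site in RefSeq (GRCm38.p6). Capitals mark the GC box (GGGCGG) and the CCAAT box (CCAAT), found on either strand. Prkaa1 is read at chr15:5143611-5143860 (plus strand), Prkaa2 at chr4:105109899-105110148 (minus), Prkag2 at chr5:25100643-25100892 (minus) and Cab39 at chr1:85793191-85793440 (plus):
Prkaa1: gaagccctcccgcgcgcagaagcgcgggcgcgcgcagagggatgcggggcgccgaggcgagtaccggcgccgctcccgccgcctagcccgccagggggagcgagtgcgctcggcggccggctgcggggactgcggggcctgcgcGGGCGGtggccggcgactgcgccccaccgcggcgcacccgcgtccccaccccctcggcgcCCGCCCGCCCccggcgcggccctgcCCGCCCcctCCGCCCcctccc
Prkaa2: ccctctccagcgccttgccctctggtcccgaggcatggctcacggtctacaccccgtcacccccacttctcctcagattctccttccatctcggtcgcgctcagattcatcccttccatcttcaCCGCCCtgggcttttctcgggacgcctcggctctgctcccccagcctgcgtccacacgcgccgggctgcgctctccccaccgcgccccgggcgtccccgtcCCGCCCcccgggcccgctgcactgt
Prkag2: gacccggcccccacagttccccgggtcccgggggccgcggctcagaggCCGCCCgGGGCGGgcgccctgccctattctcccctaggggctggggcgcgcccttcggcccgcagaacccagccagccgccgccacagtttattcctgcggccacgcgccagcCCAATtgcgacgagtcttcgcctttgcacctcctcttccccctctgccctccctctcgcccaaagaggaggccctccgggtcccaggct
Cab39: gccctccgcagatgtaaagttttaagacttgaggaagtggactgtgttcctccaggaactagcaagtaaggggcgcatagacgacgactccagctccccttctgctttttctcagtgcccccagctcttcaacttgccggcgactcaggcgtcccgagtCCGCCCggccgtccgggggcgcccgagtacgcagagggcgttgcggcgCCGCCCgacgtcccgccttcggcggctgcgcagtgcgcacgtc
The Prkaa1 window was 85.2% GC, at percentile 99.9 of the 32851 windows, and held 5 GC boxes, some of which overlap each other. The Prkaa2 window was 70.0% GC with 2 GC boxes, the Prkag2 window 73.2% with 2 GC boxes and 1 CCAAT box, and the Cab39 window 64.8% with 2 GC boxes. A GC box was present in 32.7% and a CCAAT box in 33.8% of all windows. Of 8 motifs searched on either strand the other 6 had no match in these 4 windows. The letters TATAAA of the TATA box occurred in 12.4% of all windows. Those of the E-box, CACGTG, were found in 6.02%, and the cyclic AMP response element, TGACGTCA, in 1.55%. The YY1 element, AAGATGGCG, had a match in 0.606%, the NRF1 element in 3.74% and the FOXO element, GTAAACA, in 3.17%. All 10 members matched RefSeq, with 12 windows in all, since Prkag2 has 3. Of these 12, 8 held a GC box, 9 lay above the median GC content of all windows (52.4%), and 11 above the median ratio of observed to expected CpG (0.373). The other windows of Prkag2 differed from the printed one: the window at chr5:24995754-24996003 was 48.4% GC with 0 GC boxes and 2 CCAAT boxes, and that at chr5:24908510-24908759 was 77.2% GC with 1 GC box. Among members without a call, GC boxes numbered 5 for Prkab2, 2 for Strada, 1 for Prkag1 and 0 for Prkab1, Prkag3 and Stk11. Their GC content was 69.2% for Prkab2, 65.6% for Prkab1 and Strada, 59.6% for Stk11, 52.4% for Prkag3 and 51.6% for Prkag1. The difference between windows of called and other members was not tested.

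Neither scaffold gene was called. Prkab1, which encodes beta1, lies at chr5:116013586-116024508 and had a mean normalised count of 496.4 and a log2 fold change of 0.10 ± 0.16 in the authors' deposited table (DESeq2 adjusted p = 0.69). Prkab2, which encodes beta2, lies at chr3:97658193-97673812 and had 336.7 counts and 0.06 ± 0.20 in the authors' deposited table (DESeq2 adjusted p = 0.851). The intervals ran from 0.862 to 1.33-fold for Prkab1 and from 0.798 to 1.36-fold for Prkab2, so a change of either sign up to those bounds is compatible with the values. Per kb of exon Prkab1 was 2.45 times as abundant as Prkab2, at 161.9 and 66.1 counts per kb. The upper ends of both intervals lay below the lower end for Prkaa1, 1.57-fold.

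Among the gamma genes, whose products bind AMP, ADP and ATP, Prkag2 was lower in CDH1+/THY1+ cells. It lies at chr5:24862744-25100642 on the minus strand, with 10 annotated transcripts. It had a mean normalised count of 477.6 and a log2 fold change of -0.69 ± 0.15 in the authors' deposited table (DESeq2 adjusted p = 6.7e-05), or 1.61-fold lower in CDH1+/THY1+ cells. RefSeq places its starts in 3 separate windows, and a count per gene cannot tell transcripts from these starts apart. Prkag1, the main gamma gene by level, lies at chr15:98812797-98831521 and had 1020 counts and -0.16 ± 0.15 in the authors' deposited table (DESeq2 adjusted p = 0.44). Its interval, -0.46 to 0.13 on the log2 scale, overlapped that of Prkag2, -0.99 to -0.38. Per kb of exon Prkag1 stood at 468.7 and Prkag2 at 73.7 counts.

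Prkag3, whose product is known from fast-twitch skeletal muscle, was close to the floor of the table. The gene lies at chr1:74738922-74749221, and its mean normalised count of 1.68 in the authors' deposited table corresponds to 10 reads in all 6 libraries together. Worked back from the spacing of low mean counts, the unnamed libraries held 1, 1, 1, 2, 2 and 3 reads. No library was without a read, and none had more than 3. Its log2 fold change was 0.20 ± 0.63 in the authors' deposited table, which left its adjusted p-value empty, so no difference was detectable at this depth.

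In the LKB1 complex all fold changes lay below 0, and 1 of the 3 genes was called. Cab39, the adaptor that stabilises the complex, lies at chr1:85793441-85851576 and was the most abundant member, with a mean normalised count of 3425 and 483.9 counts per kb. Its log2 fold change was -0.34 ± 0.13 in the authors' deposited table (DESeq2 adjusted p = 0.03), or 1.27-fold lower in CDH1+/THY1+ cells. Strada, the pseudokinase that holds LKB1 in its active form, lies at chr11:106163330-106202168 and had 499.7 counts and nearly the same fold change, -0.34 ± 0.17, without a call in the authors' deposited table (DESeq2 adjusted p = 0.12). Stk11, the kinase LKB1 itself, lies at chr10:80115803-80130682 and had 1505 counts and -0.13 ± 0.12 in the authors' deposited table (DESeq2 adjusted p = 0.438). Cab39 and Strada are the members just inside and just outside the threshold of 0.05. The Cab39 call was lost with a Benjamini-Yekutieli adjustment (adjusted p = 0.393 on the deposited DESeq2 p-values).

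**Figure D3:**
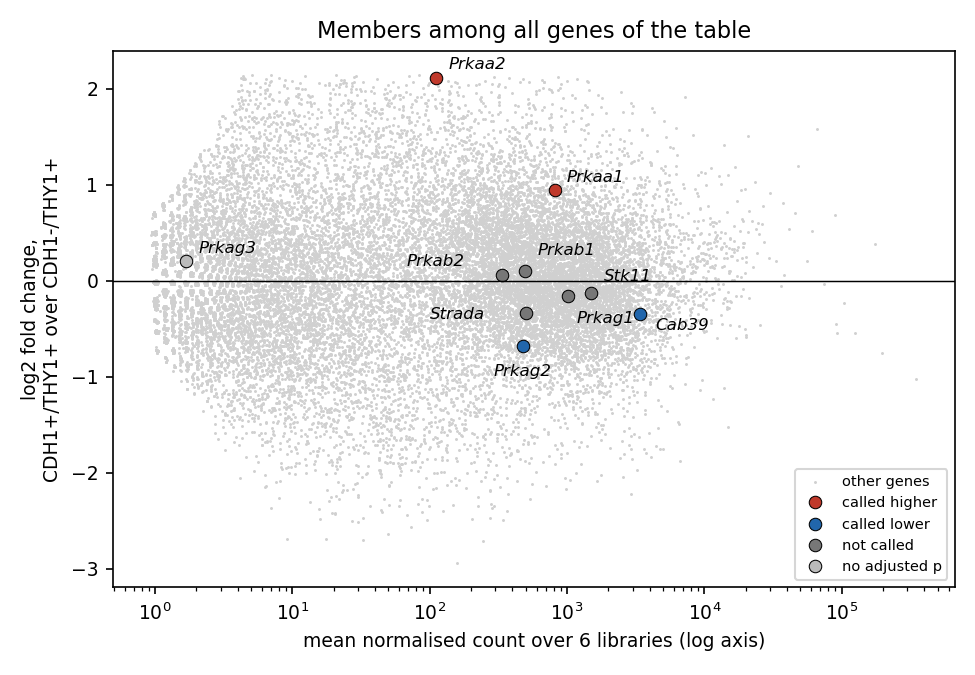
Log2 fold change in CDH1+/THY1+ relative to CDH1-/THY1+ cells against mean normalised count (log axis) for all genes with a symbol (grey) and the 10 members (coloured by call). Prkaa2, at 110.6 counts and 2.11, sits at the upper edge of the rows, which end at 2.14, while 7 members lie within 0.35 of 0.

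Some members overlap other genes in the annotation. B130046B21Rik shares 950 exon bases with Prkag1 on the opposite strand, or 43.7% of its exon length, but had a mean normalised count of 1.67 in the authors' deposited table. Prkag2os2, opposite Prkag2, shares 795 bases and had 1.47 counts in the authors' deposited table. Cbarp shares 232 bases with Stk11 on the opposite strand and had 208.0 counts and a log2 fold change of 0.10 ± 0.30 in the authors' deposited table. Ccdc47 shares 158 bases with Strada on the same strand, or 2.84% of its exons, and had 1255 counts and 0.60 ± 0.15 in the authors' deposited table (DESeq2 adjusted p = 0.000633). The libraries were strand-specific, but the sources used here do not say whether counting used strand. No gene overlapping Prkaa2 is annotated.

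Marker genes were read in the same comparison. All 14 listed germ cell identity genes were lower in CDH1+/THY1+ cells, with a median log2 fold change of -1.74 in the authors' deposited table, led by the piRNA pathway genes Tdrd1 (-2.22 ± 0.20) and Tdrd9 (-2.01 ± 0.20). Of 13 undifferentiated spermatogonia genes with a row, 9 were lower and 0 higher (median -0.99 in the authors' deposited table), among them Zbtb16 (-1.86 ± 0.18) and Sohlh1 (-2.17 ± 0.28). Of 22 fibroblast genes 8 were higher and 0 lower, all 22 lay above 0, and the median was 0.71 in the authors' deposited table. The macrophage and leukocyte list had a row for only 6 of its 10 genes. Among these 4 were higher, and mean counts of the 6 ran from 3.23 to 133.5 in the authors' deposited table. Of 10 Sertoli cell genes with an adjusted p-value 2 were higher and 2 lower. Sums of mean counts were 343879 for the fibroblast list, 49075 for germ cell identity, 22867 for undifferentiated spermatogonia, 2741 for Sertoli cell and 330.5 for macrophage and leukocyte genes in the authors' deposited table. The lowest mean count of any row was 0.938, so no listed marker with a row was at 0. Listed symbols without a row were not analysed here, and the medians and sums leave them out. They were 4 macrophage and leukocyte, 2 Sertoli cell and 2 undifferentiated spermatogonia symbols. The sums of these lists therefore do not measure the whole lists. A textbook list of pluripotency genes was added after the values were seen. Of its 20 genes 8 had a row, of which 6 were higher and 0 lower (4 and 0 under Benjamini-Yekutieli), with a median of 1.26 and summed mean counts of 8314 in the authors' deposited table. The median and the sum cover only these 8 genes, and no row lay above 2.14, so they do not measure the whole list. Among them were the transcription factor genes Sox2 (2.08 ± 0.64) and Pou5f1 (1.24 ± 0.36), which encodes OCT4, and the markers Zfp42 (1.93 ± 0.56) and Dppa4 (1.27 ± 0.31) in the authors' deposited table. The call of Sox2 ended under Benjamini-Yekutieli (adjusted p = 0.0682). The part of these markers in the values of the AMPK and LKB1 genes was not tested, and in bulk samples fewer cells of a type and less RNA per cell cannot be told apart.

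The wider pathway was read from 10 lists of AMPK regulators, LKB1 substrates and AMPK targets. Of 110 listed symbols 108 had a row and 106 could be called; the counts from the authors' deposited table were 19 higher, 23 lower and 64 not called in CDH1+/THY1+ cells. That is 39.6% called, against 33.5% of all genes. Where the mean count reached 100, the share was 41.6% of the pathway (42 of 101) and 44.3% of all genes. The median log2 fold change was -0.08, against 0.01. The pathway had members on both sides, and no list had all of its genes called in a single direction.

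Among genes that act on AMPK, 4 of 17 were higher and 3 lower, and the list median was -0.01 in the authors' deposited table. Ppm1a and Ppm1f, metal-dependent phosphatases, stood at 1.04 ± 0.20 and 0.63 ± 0.13 in the authors' deposited table, and their relative Ppm1d at -0.86 ± 0.19. Camkk1, of the calmodulin-dependent kinase kinases, had -0.59 ± 0.24 in the authors' deposited table (DESeq2 adjusted p = 0.045), a call lost with a Benjamini-Yekutieli adjustment (adjusted p = 0.585). Camkk2, the best known AMPK kinase beside LKB1, had -0.37 ± 0.18 without a call in the authors' deposited table. The other scaffolds of LKB1, Stradb and Cab39l, had -0.43 ± 0.20 and -0.41 ± 0.20 without a call in the authors' deposited table. The stress-induced sestrins Sesn1, Sesn2 and Sesn3 were not called, at -0.04, 0.52 and 0.04 in the authors' deposited table.

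Of 12 AMPK-related kinases that LKB1 also activates, 1 was higher and 4 lower, and the list median was -0.29 in the authors' deposited table. Brsk2, a kinase of neuronal polarity, had the lowest value of the list, -1.59 ± 0.25 in the authors' deposited table (DESeq2 adjusted p = 3.5e-09). Snrk and Mark2, a microtubule affinity regulating kinase, had -0.52 ± 0.14 and -0.47 ± 0.17, and Sik2, a salt-inducible kinase, -0.43 ± 0.16 in the authors' deposited table. Nuak1 was the higher gene, at 0.64 ± 0.22 in the authors' deposited table. The calls of Nuak1, Mark2 and Sik2 were lost with a Benjamini-Yekutieli adjustment, at adjusted p-values of 0.199, 0.281 and 0.287.

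Of 16 genes of lipid synthesis and oxidation, 3 were higher and 3 lower, and the list median was -0.03 in the authors' deposited table. Acaca, acetyl-CoA carboxylase 1 and a classical AMPK substrate, had -0.69 ± 0.13 in the authors' deposited table (DESeq2 adjusted p = 2.52e-06), whereas its isoform Acacb had -0.02 ± 0.21. Insig1, which restrains SREBP processing, and the sterol regulator Srebf2 had -0.77 ± 0.21 and -0.56 ± 0.14 in the authors' deposited table. The carnitine palmitoyltransferase genes Cpt1c and Cpt1a had 0.71 ± 0.15 and 0.46 ± 0.18, and the desaturase gene Scd2 0.91 ± 0.29 in the authors' deposited table. A Benjamini-Yekutieli adjustment ended the calls of Cpt1a (adjusted p = 0.432) and Scd2 (0.106).

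Genes of mTORC1 and its regulators had 3 higher and 2 lower of 11, and the list median was -0.12 in the authors' deposited table. The mTORC1 substrate genes Eif4ebp1, a brake on cap-dependent translation, and Rps6kb1, an S6 kinase, had 1.05 ± 0.24 and 0.71 ± 0.14 in the authors' deposited table. Mtor itself and its inhibitor Tsc2 had -0.58 ± 0.20 and -0.48 ± 0.19 in the authors' deposited table, and both calls were lost with a Benjamini-Yekutieli adjustment (adjusted p = 0.198 and 0.405). In the folliculin list 2 of 8 were higher and 3 lower. Fnip2, a folliculin partner, had -0.82 ± 0.21, Flcn -0.43 ± 0.15 and the AMPK-docking scaffold gene Axin1 -0.48 ± 0.14 in the authors' deposited table. Tfe3, a lysosomal transcription factor gene, had 0.63 ± 0.17 in the authors' deposited table. The Flcn call did not hold under Benjamini-Yekutieli (adjusted p = 0.207).

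In the autophagy initiation list, Ulk1, the initiating kinase that AMPK phosphorylates, had 1.07 ± 0.22 in the authors' deposited table (DESeq2 adjusted p = 1.16e-05), the only higher gene of 9, of which 3 were lower. Atg14 and Pik3c3, of the phosphatidylinositol 3-kinase complex, had -0.98 ± 0.16 and -0.78 ± 0.15, and Atg101 -0.47 ± 0.16 in the authors' deposited table. The median of the list was -0.15 in the authors' deposited table, and the Atg101 call ended under Benjamini-Yekutieli (adjusted p = 0.166).

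Of 11 glucose uptake and glycogen genes with an adjusted p-value, 2 were higher and 1 lower, and the list median was 0.34 in the authors' deposited table. The glucose transporter gene Slc2a1 had 0.97 ± 0.23, Txnip, which limits glucose uptake, 0.34 ± 0.12, and the clock repressor gene Cry1, an AMPK substrate, -0.73 ± 0.17 in the authors' deposited table. The phosphofructokinase-2 genes Pfkfb1 to Pfkfb4 were not called, at 0.17 to 0.58 in the authors' deposited table. Of 10 mitochondrial genes with an adjusted p-value 2 were higher and 1 lower. Dnm1l, the dynamin of mitochondrial fission, had 0.98 ± 0.15 and Nampt, of NAD synthesis, 0.58 ± 0.19, while Pprc1 had -0.60 ± 0.21 in the authors' deposited table. Under Benjamini-Yekutieli the calls of Txnip (adjusted p = 0.242), Nampt (0.0976) and Pprc1 (0.241) ended. Ppargc1a, the coactivator PGC-1alpha, had a mean count of 2.45 and no adjusted p-value in the authors' deposited table.

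Transcription regulators under AMPK and LKB1 control had 1 higher and 2 lower of 10, and the list median was -0.33 in the authors' deposited table. Foxo1 had -1.48 ± 0.23 and Crtc1, a CREB coactivator gene, -0.80 ± 0.19, while Foxo4 had 0.75 ± 0.20 in the authors' deposited table. Foxo1 is also a marker of undifferentiated spermatogonia, a list that was lower in the same comparison. Eef2k, the kinase that slows translation elongation and is activated through AMPK, had -1.16 ± 0.21 in the authors' deposited table (DESeq2 adjusted p = 4.9e-07), and its substrate Eef2 had -0.04 ± 0.18 without a call.

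**Figure D4:**
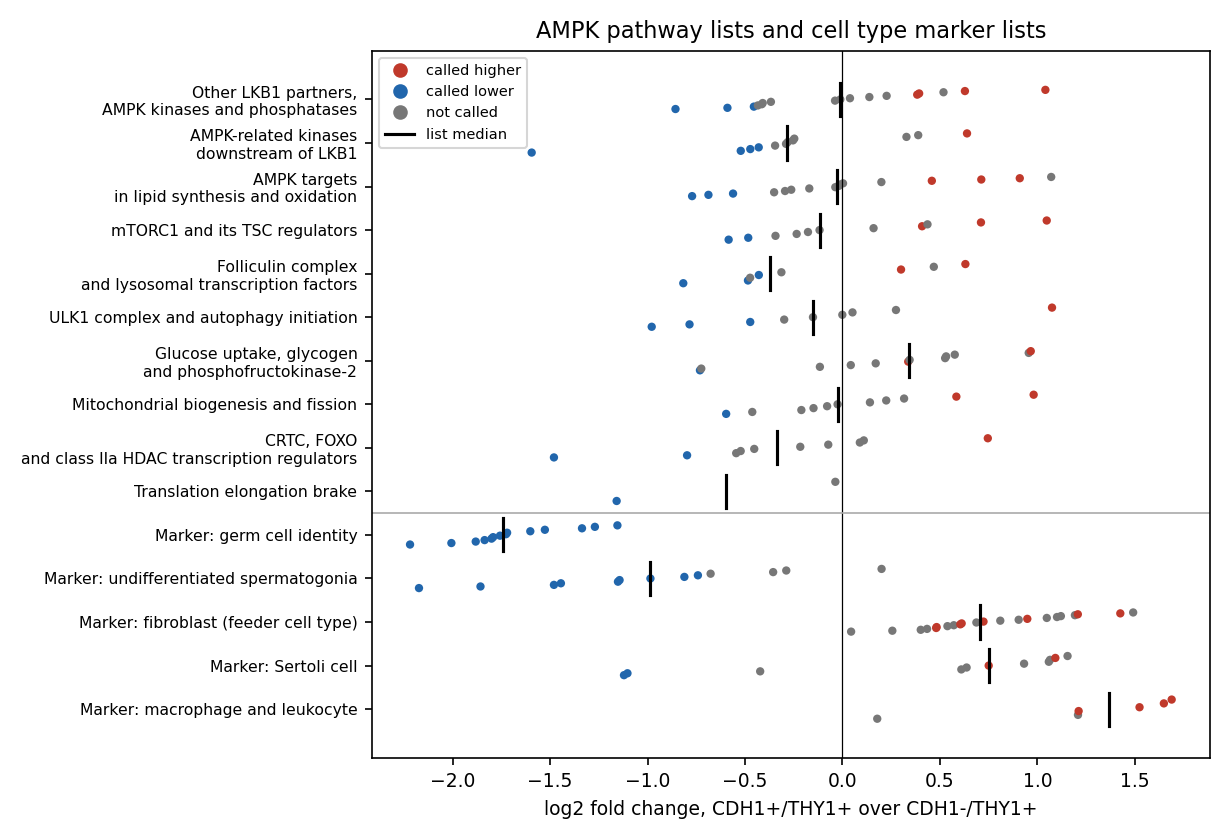
Log2 fold change in CDH1+/THY1+ relative to CDH1-/THY1+ cells of each gene of 10 pathway lists (above the line) and 5 marker lists (below it), coloured by call, with the list median as a bar. Pathway medians lie between -0.60 and 0.34. Marker medians are -1.74 for germ cell identity and -0.99 for undifferentiated spermatogonia. They are 0.71 for fibroblast, 0.75 for Sertoli cell and 1.37 for macrophage and leukocyte markers. Points and medians cover only genes with a row.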

How the data were processed

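RNA of 6 samples was sequenced after ribosomal RNA depletion, per the labels' protocols. The submitters' processing notes name Trimmomatic 0.32 and TopHat2 2.1.1, build GRCm38.p4, counting by featureCounts of Subread 1.5.0-p3, and R 3.3.1 with DESeq2 1.12.3. The sources used here do not give the annotation, model formula or use of strand. The authors' deposited table has 22432 rows. Its mean normalised count is a signal averaged by the authors over all libraries. The deposited fold change and standard error are on the log2 scale, the deposited Wald statistic is a score, and p-values and adjusted p-values are as deposited. Standard errors end at 0.639 even for genes with few reads, a sign that the fold changes are shrunken towards 0. The cultures RP7, RP5 and WT1 pair the populations in the labels; whether the deposited p-values measure spread between the 6 samples or within the 3 pairs is not given in the sources used here. Nothing says that the cultures came from separate animals.

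Symbols and exon lengths came from GENCODE M21 (22317 rows matched), start regions from RefSeq GRCm38.p6. Members and lists were chosen with earlier results of these data known. All members are named, and up to 4 called genes per pathway list (2 per marker list) with a mean count of at least 100 and the largest fold change; others in the text were picked for their role after their values were seen. No model was fitted. Reads per library were worked back from low mean counts: all 1734 rows under 1.6 were whole reads to within 3e-07, with size factors of 0.913 to 1.08. Adjustments and this step were tested on simulated data. Python 3.11.15, Biopython 1.88 and statsmodels 0.14.6 were used.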

Additional observations from a re-analysis of the deposited data

How the results depend on the processing

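The fold change of Prkaa2 went to 2.64 on the log2 scale with the shrinkage approximately undone, 6.24-fold. That step multiplies each value by a positive factor, so it cannot change a direction, and it was not computed for Prkag3. Centring on the median of all rows moved every member by 0.01. The smallest member value in size, 0.06 for Prkab2, exceeded this shift, so no direction could change. Of the members called higher, 1 remained at a minimum of 2-fold (Prkaa2). Of the members called lower, 1 was left under Benjamini-Yekutieli or at an adjusted p under 0.01, and 0 at a minimum of 2-fold. In the pathway lists, with 108 genes that had a row and 106 with an adjusted p-value, calls fell under each stricter setting. The higher and lower calls came to 10 and 14 under Benjamini-Yekutieli, 12 and 15 at 0.01, and 3 and 3 at 2-fold. Over all genes the share called was 16.3%, 23% and 14% under these settings in turn. Among markers, the higher fibroblast calls came to 3, 4 and 2 under these settings, the higher macrophage and leukocyte calls to 1 under the first and second, and the higher Sertoli calls to 0, 0 and 1, with 1 lower Sertoli call under Benjamini-Yekutieli. With a mean count of at least 100, 2 higher macrophage and leukocyte and 1 lower Sertoli call were left. Leaving out the 10% of genes whose standard error was largest at their mean count, there were 5 lower calls of undifferentiated spermatogonia and 0 higher Sertoli calls. No paired analysis was possible because the table holds no value per sample, and for the same reason no library could be left out. Among the members depth limits Prkag3.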

Other observations

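The protein-coding genes with a row that flank the 10 members on either side were listed after the values were seen. Of these 20 genes 17 had an adjusted p-value in the authors' deposited table, and 2 were higher and 2 lower in CDH1+/THY1+ cells. Of all genes 33.5% were called, with 17.1% higher and 16.4% lower, and nothing is read from the count of neighbours. Plpp3, a lipid phosphate phosphatase gene 47.5 kb from Prkaa2, was higher like its neighbour, with a log2 fold change of 1.18 ± 0.28 in the authors' deposited table (DESeq2 adjusted p = 0.000196), while Fyb2, 13.0 kb away on the other side, had -0.89 ± 0.45 without a call. Rheb, the GTPase that activates mTORC1, lies 20.1 kb from Prkag2 and was higher, at 0.41 ± 0.14 in the authors' deposited table (DESeq2 adjusted p = 0.0139), where Prkag2 was lower, at -0.69 ± 0.15. Ttc33, 3.63 kb from Prkaa1, was lower, at -0.42 ± 0.14 in the authors' deposited table (DESeq2 adjusted p = 0.0106), while Prkaa1 was higher. Ddx42, an RNA helicase gene 14.8 kb from Strada, had -0.33 ± 0.13 in the authors' deposited table (DESeq2 adjusted p = 0.0385), beside the -0.34 ± 0.17 of Strada. Under Benjamini-Yekutieli the calls of Rheb (adjusted p = 0.185), Ttc33 (0.142) and Ddx42 (0.502) ended and that of Plpp3 held (0.00281).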
